A study of Mus musculus with 8 samples.

Results

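Lcn2, S100a8, S100a9, Serpina3n, Serpina3g, Saa3, Hp, Cebpd, Cebpb and Il1r1 are 10 of the 55573 genes in the deposited count table. They were picked by name, from genes of the acute-phase response and of neutrophils, with earlier values of the same genotype contrast known. The differences between genotypes are therefore given for these genes as a description, with no test. All hearts came from male C57BLKS/J mice, 24 weeks of age. The db/db mice are homozygous for the db mutation of the leptin receptor, which leaves them obese and diabetic, and were compared with db/m mice, the heterozygous control, which carries 1 copy of the same mutation. Each genotype had 4 libraries of total heart RNA. The labels do not say that each library is a separate animal, so the spread between libraries may be partly technical.

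The acute-phase response is the change in secreted proteins that follows infection, injury or inflammatory cytokines. Interleukin-1 signals through its receptor IL1R1 and interleukin-6 through STAT3, and both reach secreted protein genes through NF-kB, STAT3 and the C/EBP transcription factors. The liver is the main source in plasma, while neutrophils, macrophages, fat cells and stressed heart muscle make some of the same proteins locally.

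Upstream sequences are shown for Lcn2 and for the pairs Serpina3g with Serpina3n and S100a8 with S100a9. These were chosen since the first pair parted between genotypes and the second moved together from library to library. The 250 bases before the RefSeq transcription start on GRCm38.p6 read as follows, from 5′ to 3′, with motif matches in capitals.
Lcn2, chr2:32387740-32387989, minus strand: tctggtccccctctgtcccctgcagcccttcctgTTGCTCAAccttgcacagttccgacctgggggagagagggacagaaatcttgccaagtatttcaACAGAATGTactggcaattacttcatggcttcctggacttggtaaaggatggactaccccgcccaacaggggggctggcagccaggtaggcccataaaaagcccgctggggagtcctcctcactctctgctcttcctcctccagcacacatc
Serpina3g, chr12:104235897-104236146, plus strand: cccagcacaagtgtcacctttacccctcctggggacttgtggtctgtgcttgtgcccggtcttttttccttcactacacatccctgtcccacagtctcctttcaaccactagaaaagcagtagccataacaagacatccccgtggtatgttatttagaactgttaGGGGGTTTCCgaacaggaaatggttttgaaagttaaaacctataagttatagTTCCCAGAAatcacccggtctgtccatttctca
Serpina3n, chr12:104406458-104406707, plus strand: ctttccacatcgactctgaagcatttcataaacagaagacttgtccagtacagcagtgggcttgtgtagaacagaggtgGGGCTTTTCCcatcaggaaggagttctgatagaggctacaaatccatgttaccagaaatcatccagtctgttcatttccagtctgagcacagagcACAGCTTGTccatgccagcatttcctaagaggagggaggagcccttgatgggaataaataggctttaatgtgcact
S100a8, chr3:90668821-90669070, plus strand: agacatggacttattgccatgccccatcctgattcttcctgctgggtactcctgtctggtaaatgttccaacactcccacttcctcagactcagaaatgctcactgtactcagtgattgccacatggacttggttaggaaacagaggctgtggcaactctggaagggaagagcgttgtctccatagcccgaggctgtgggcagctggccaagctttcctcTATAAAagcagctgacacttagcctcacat
S100a9, chr3:90695722-90695971, minus strand: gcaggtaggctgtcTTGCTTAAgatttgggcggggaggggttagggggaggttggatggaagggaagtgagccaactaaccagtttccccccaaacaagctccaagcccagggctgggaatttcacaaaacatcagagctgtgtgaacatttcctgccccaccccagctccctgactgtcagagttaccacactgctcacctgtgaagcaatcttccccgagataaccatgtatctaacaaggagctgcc

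A window of 300 bases around the start was found for 8 of the 10 genes, the exceptions being Hp and Cebpd. For Lcn2, S100a8 and Saa3 the deposited gene interval begins further upstream than the RefSeq start. Both strands were searched for 6 motifs, and no gene's matches overlapped one another. The motif forms were chosen after several were tried, so nothing is read from the shares below. The C/EBP motif TTGCNNAA lay in the windows of Lcn2, S100a9, Saa3 and Il1r1, that is 4 of 8 genes, and in 10.8% of 32851 windows of all genes. The Lcn2 match TTGCTCAA began at -216, counting the start base as 0, and the S100a9 match TTGCTTAA at -236. The NF-kB motif lay in the windows of Serpina3n and Serpina3g, 2 of 8 genes, and in 1.63% of all windows. Serpina3g alone held the STAT motif TTCNNNGAA, which lay in 8.3% of all windows. The glucocorticoid receptor motif ACANNNTGT lay in those of Lcn2, Serpina3n and S100a8 and in 6.85% of all windows. TATAAA lay in those of S100a8, S100a9 and Cebpb and in 13.6%. The AP-1 motif TGANTCA, present in 7.81% of all windows, was in none of the 8. The window of Serpina3g shares a run of 13 bases, CAGAGCACAGCTT, with those of Serpina3n and of its neighbour Serpina3f, a run that 6 of 32851 windows hold.

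Total counts per library ranged from 19541757 to 22249911. Counts were scaled to CPM, the share of a count in its library brought to one common total, with TMM factors that correct each total for the make-up of the library. The 12 ventricular muscle markers summed to 40011 to 47985 CPM in db/db libraries, against 35060 to 46069 CPM in db/m libraries. Atrial markers summed to 2208 and 5028 CPM in db/m replicates 1 and 3, against at most 223 CPM in the other 6 libraries, and db/m replicate 3 had a limma-voom quality weight of 0.124 against 0.943 to 2.09 elsewhere. Ucp1, which uncouples mitochondria in brown fat, had 0 counts in all 4 db/db libraries, against 1765, 2, 8220 and 0 in db/m replicates 1 to 4. The differences of the 9 testable genes are therefore also given without these 2 libraries, which leaves 4 db/db and 2 db/m. Lepr had 3.73 to 6.68 CPM in db/db libraries, against 5.28 to 21.01 CPM in db/m libraries. The db mutation changes the splicing of one receptor form, so this total does not check the genotype. In whole-tissue RNA, fewer cells of a type and less RNA per cell cannot be told apart.

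Lcn2 and Serpina3g separated the genotypes without overlap, both higher in db/db, a pattern shown by 5.04% of all genes. S100a8 and S100a9 had higher means in db/db that rested on 1 library, Saa3 had counts in the same library, and Hp had a lower mean in db/db that rested on db/m replicates 1 and 3. Serpina3n, Cebpb, Cebpd and Il1r1 had means that differed between genotypes by less than the spread between libraries of the more variable genotype. Of the 10 genes 9 passed the filter on low counts, Saa3 being the exception.

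**Figure D1:**
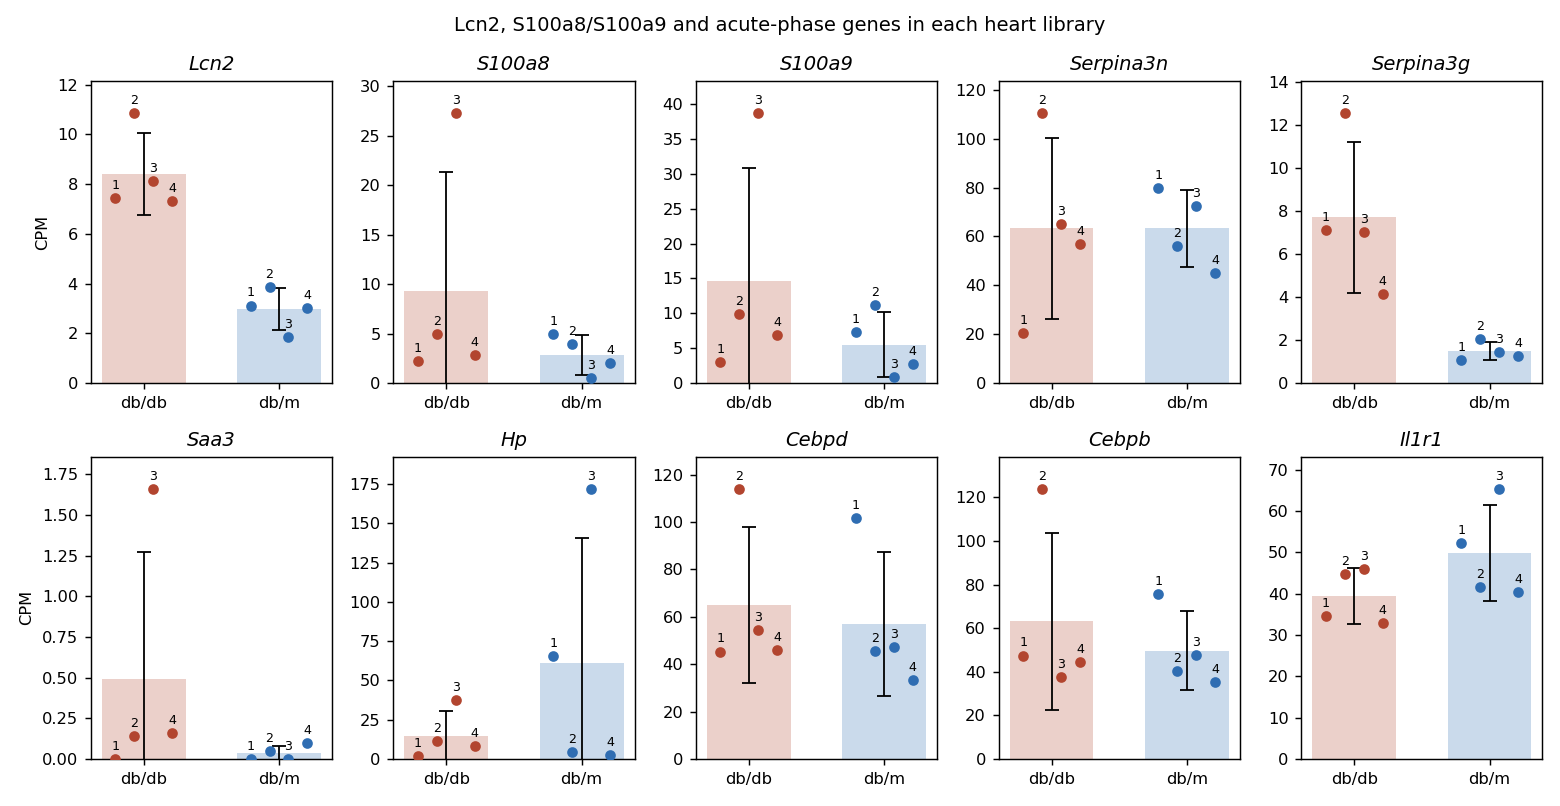
CPM of each of the 10 genes in the 4 db/db and the 4 db/m heart libraries. Points are libraries with their replicate number, bars are group means and error bars are SD, drawn down to 0 where they pass below it. Lcn2 and Serpina3g are the panels in which no library of 1 genotype reaches the other.

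edgeR p-values were adjusted by the method of Benjamini and Hochberg (BH) over 17411 genes and called under 0.05. Of the 9 genes edgeR called 0, and of all genes 0.00574%. An unadjusted p under 0.05 with a higher level in db/db was found for 2 of the 9 and for 5.12% of all genes. DESeq2 called 2 of them higher, where it called 0.789% of all genes higher, and limma-voom called 2, where it called 0.414%. edgeR without a filter on low counts called 2 higher, where it called 0.0601% of all genes, and without db/m replicate 3 it also called 2, where it called 0.363%. In every case these were Lcn2 and Serpina3g. Without db/m replicates 1 and 3 edgeR called 0 of them (2 by unadjusted p) and 0.256% of all genes. Since the genes were picked with this contrast known, nothing is read from these counts.

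The ligands come first in the pathway. S100a8 and S100a9 encode the small calcium-binding proteins that pair as calprotectin, which neutrophils carry in their cytosol and release as a ligand of TLR4. S100a8 (ENSMUSG00000056054, chromosome 3, 90668978 to 90670035, mm10) had 2.21, 4.93, 27.3 and 2.83 CPM in db/db replicates 1 to 4, against 4.97, 3.93, 0.496 and 2.04 CPM in db/m replicates 1 to 4. S100a9 (ENSMUSG00000056071, chromosome 3, 90692632 to 90695721) had 3.07, 9.85, 38.6 and 6.94 CPM in db/db, against 7.30, 11.1, 0.869 and 2.80 CPM in db/m. Both genes were highest in db/db replicate 3 and lowest in db/m replicate 3, and the other 6 libraries overlapped.

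S100a8 averaged 9.31 ± 12.03 CPM in db/db and 2.86 ± 1.99 CPM in db/m (SD, n = 4 each), a log2 fold change of 1.71 (SE 0.86). S100a9 averaged 14.6 ± 16.3 CPM in db/db and 5.53 ± 4.61 CPM in db/m, a log2 fold change of 1.41 (SE 0.83). Without db/db replicate 3 these log2 fold changes were 0.22 and 0.27. Without db/m replicates 1 and 3 they were 1.64 for S100a8 and 1.07 for S100a9. The genes lie 22596 bases apart, and their levels moved together from library to library. The ratio of S100a9 counts to S100a8 counts stayed between 1.37 and 2.84 in all 8 libraries, while S100a8 itself ranged 12.4-fold among db/db libraries and 10.01-fold among db/m libraries.

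Most neutrophil markers stood highest in db/db replicate 3, 20 of the 25 with any count. The exceptions were Hdc and Clec4e, highest in db/db replicate 2, and Csf3r, Prtn3 and Ctsg, highest in a db/m library. Some of the 20 had fewer than 10 counts even in db/db replicate 3, and the share of all genes highest in that library was not taken. Hdc, which makes histamine and is also a mast cell gene, had 5.17, 9.62, 2.63 and 5.12 CPM in db/db replicates 1 to 4, against 2.86, 2.36, 3.85 and 5.56 CPM in db/m replicates 1 to 4. Csf3r, the receptor of the neutrophil growth factor G-CSF, had 1.51, 2.02, 4.79 and 3.90 CPM in db/db, against 2.37, 6.63, 2.15 and 2.33 CPM in db/m. Among db/db libraries Hdc was lowest in replicate 3, where S100a8 peaked, while Csf3r was highest there. Clec4e, Prtn3 and Ctsg were named after their values were seen. The granule genes also peaked with S100a8. Ngp, a protein of neutrophil granules, had 0, 19, 228 and 2 counts in db/db replicates 1 to 4, against 4, 0, 0 and 12 counts in db/m replicates 1 to 4. Ltf, the granule iron binder lactoferrin, had 1, 4, 137 and 3 counts in db/db, against 4, 5, 4 and 3 in db/m. Camp, the antimicrobial cathelicidin, had 25 and Ly6g, the neutrophil surface marker, had 22 counts in db/db replicate 3, and neither had more than 3 in any other library. These 4 genes lie outside the naming rule and were picked once their counts were known, and together they had 1, 26, 412 and 5 counts in db/db, against 8, 7, 4 and 16 in db/m.

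The list of 30 neutrophil markers summed to 14.9, 32.8, 75.3 and 21.8 CPM in db/db replicates 1 to 4, against 22.0, 25.1, 17.0 and 18.3 CPM in db/m replicates 1 to 4. Of the 30, 13 passed the filter, 12 with a positive log2 fold change and 1 with a negative one. Their median was 0.79, against -0.02 over all genes tested. Most markers with any count were highest in db/db replicate 3, and no median without that library is given. Elane, a defining elastase of neutrophil precursors, was at 0 in all 8 libraries. edgeR called 0 of the 13, and neither DESeq2 nor limma-voom called any. By unadjusted p under 0.05 in edgeR 2 were higher, where 5.12% of all genes were. Chil3, a chitinase-like protein also made by macrophages, had 1.88 ± 0.737 CPM in db/db and 0.543 ± 0.459 CPM in db/m, a log2 fold change of 1.80 (SE 0.60; edgeR BH-adjusted p = 0.302). Fpr2, a formyl peptide receptor, was at 1.47 on the same log2 scale (SE 0.61), and Csf3r was at -0.14 (SE 0.47). Macrophage and monocyte markers summed to 448 to 1341 CPM in db/db, with the highest sum again in replicate 3, against 749 to 1064 CPM in db/m. The part of these cells in the S100a8 and S100a9 values was not tested.

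**Figure D2:**
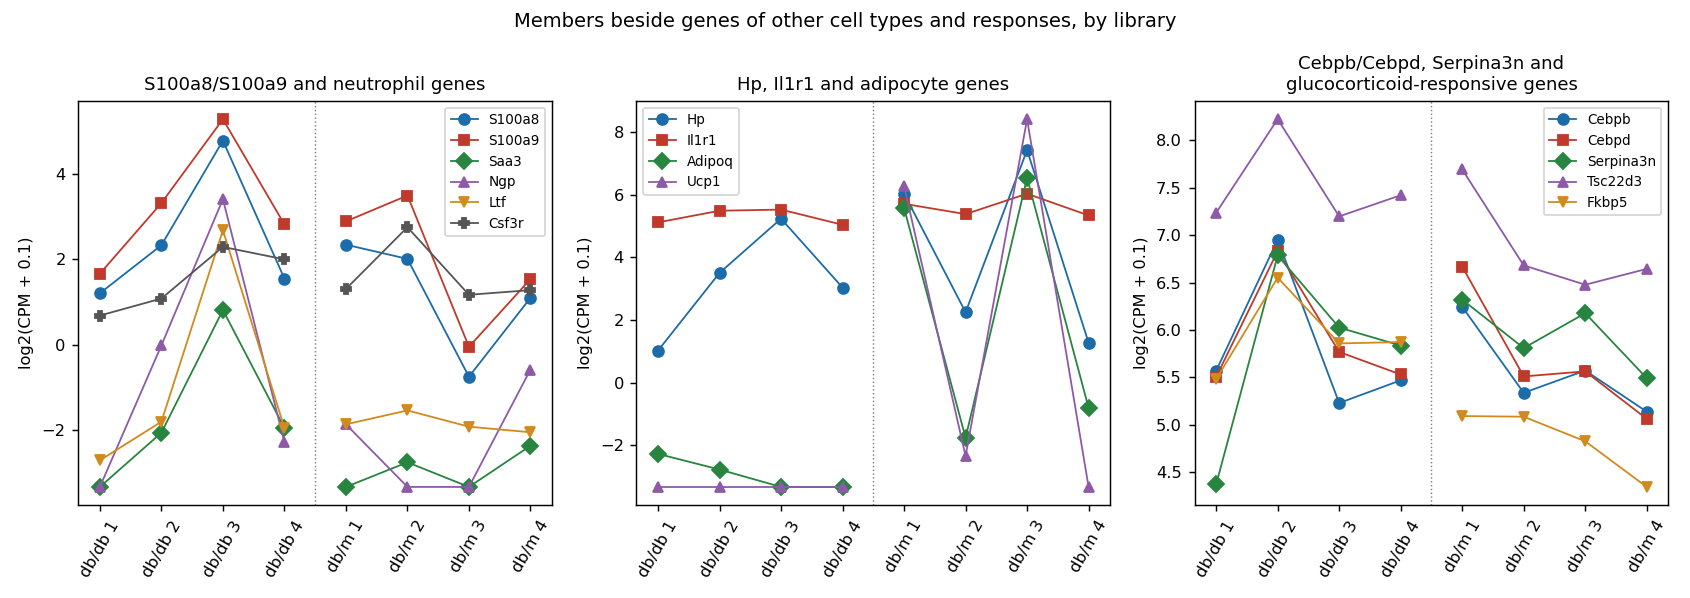
Levels of selected genes in each library on a log2(CPM + 0.1) axis, with the 4 db/db libraries left of the dotted line and the 4 db/m libraries right of it; lines join the points of 1 gene and imply no order of replicates. S100a8, S100a9, Saa3, Ngp and Ltf peak in db/db replicate 3, Hp follows Adipoq and Ucp1 in db/m replicates 1 and 3, and Cebpb, Cebpd and Tsc22d3 are high in db/db replicate 2 and db/m replicate 1.

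A list of 15 other S100 genes and S100pbp, which encodes a protein that binds S100P, had 8 of 16 past the filter, with 5 positive and 3 negative log2 fold changes, S100pbp being 1 of the 3 (-0.18), and a median of 0.14. edgeR called 0 of these 8 (0 by unadjusted p), and neither DESeq2 nor limma-voom called any. S100a1, the S100 protein of heart muscle, had 314 ± 36.2 CPM in db/db and 214 ± 117 CPM in db/m, a log2 fold change of 0.55 (SE 0.45). Its level in db/m replicate 3 was 44.7 CPM, and without that library its log2 fold change was 0.22. Bsg, which encodes basigin, a receptor reported for S100A9, had 1033 ± 67.8 CPM in db/db and 896 ± 269 CPM in db/m, a log2 fold change of 0.20 (SE 0.22).

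The receptor Il1r1 (ENSMUSG00000026072, chromosome 1, 40225080 to 40317257) carries the interleukin-1 signal to MYD88 and NF-kB. It had 34.6, 44.8, 46.0 and 32.8 CPM in db/db replicates 1 to 4, against 52.2, 41.6, 65.3 and 40.4 CPM in db/m replicates 1 to 4. The groups overlapped, and the highest values were those of db/m replicates 1 and 3. Il1r1 averaged 39.6 ± 6.80 CPM in db/db and 49.9 ± 11.6 CPM in db/m, a log2 fold change of -0.33 (SE 0.19). Without db/m replicates 1 and 3 the log2 fold change was -0.06.

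Genes around this receptor gave no call between genotypes. Of 22 genes of interleukin-1 and toll-like receptor signalling, 18 passed the filter, with 7 positive and 11 negative log2 fold changes and a median of -0.10, or 0.04 without db/m replicates 1 and 3. edgeR called 0 (0 by unadjusted p), and neither DESeq2 nor limma-voom called any. Il1b, the ligand, had 1.56, 1.08, 2.86 and 1.49 CPM in db/db replicates 1 to 4, against 0.967, 2.65, 0.993 and 1.76 CPM in db/m replicates 1 to 4, and was singled out after its values were seen. Its groups overlapped, with a log2 fold change of 0.14 (SE 0.43). Tlr4, the receptor that binds calprotectin, had 29.3 ± 3.44 CPM in db/db and 38.7 ± 14.9 CPM in db/m (log2 fold change -0.40, SE 0.23). Without db/m replicate 3, where it had 60.9 CPM, the Tlr4 log2 fold change was -0.09. Traf6, the adaptor ubiquitin ligase downstream of both receptors, had -0.29 (SE 0.15; edgeR BH-adjusted p = 0.421), with all db/db libraries below all db/m libraries, as in 4.61% of all genes.

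NF-kB and STAT3 genes gave no call either. Of 24 NF-kB genes 23 passed the filter, with 9 positive and 14 negative log2 fold changes, a median of -0.05 and 0 calls by edgeR, DESeq2 or limma-voom. By edgeR 2 of them had an unadjusted p under 0.05 and were lower, where 7.84% of all genes were. These were Rel, the c-Rel subunit, at 21.4 ± 4.46 CPM in db/db and 33.2 ± 3.26 CPM in db/m (log2 fold change -0.64, SE 0.17; edgeR BH-adjusted p = 0.238), and Bcl3, a nuclear co-regulator of NF-kB (-0.63, SE 0.25; adjusted p = 0.354 by the same test). Nfkbia, the inhibitor that NF-kB itself induces, had 0.43 (SE 0.31). The cytokine Tnf had 0.646 to 2.49 CPM in db/db and 0.132 to 1.52 CPM in db/m, and was singled out after its values were seen.

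Of 16 genes of the interleukin-6 family and STAT3, 13 passed the filter, with 3 positive and 10 negative log2 fold changes and a median of -0.18, or -0.05 without db/m replicates 1 and 3. edgeR, DESeq2 and limma-voom called 0 of the 13. By edgeR 3 had an unadjusted p under 0.05 and were lower in db/db, where 7.84% of all genes were. Lif, a cytokine of the family, had 0.386 ± 0.251 CPM in db/db and 1.25 ± 0.414 CPM in db/m (log2 fold change -1.68, SE 0.52; edgeR BH-adjusted p = 0.293). Il6st, the shared receptor subunit gp130, had -0.68 (SE 0.28) and -0.15 without db/m replicates 1 and 3. Jak1, the kinase bound to that subunit, had -0.36 (SE 0.13) and -0.38 without them. Il6 itself, named after its counts were seen, had 2, 0, 0 and 0 counts in db/db, against 10, 1, 0 and 0 in db/m.

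The transcription factors Cebpb and Cebpd carry both cytokine signals to secreted protein genes, and Cebpd is induced early in the response. Cebpd (ENSMUSG00000071637, chromosome 16, 15887286 to 15891031) had 45.3, 114, 54.4 and 46.2 CPM in db/db replicates 1 to 4, against 102, 45.5, 47.2 and 33.3 CPM in db/m replicates 1 to 4. Cebpb (ENSMUSG00000056501, chromosome 2, 167688915 to 167690418) had 47.4, 124, 37.4 and 44.2 CPM in db/db, against 75.8, 40.4, 47.5 and 35.1 CPM in db/m. Each gene was highest in replicate 2 among db/db libraries and in replicate 1 among db/m libraries, and the groups overlapped.

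Cebpd averaged 65.0 ± 32.9 CPM in db/db and 56.9 ± 30.5 CPM in db/m, a log2 fold change of 0.19 (SE 0.39). Cebpb averaged 63.2 ± 40.6 CPM in db/db and 49.7 ± 18.1 CPM in db/m, a log2 fold change of 0.35 (SE 0.39). Neither sign was stable: without db/db replicate 2 the log2 fold changes were -0.23 for Cebpd and -0.21 for Cebpb, and without db/m replicate 1 they were 0.63 for each. Without db/m replicates 1 and 3 they were 0.72 for Cebpd and 0.74 for Cebpb. The ratio of Cebpb to Cebpd counts lay between 0.688 and 1.09 in all 8 libraries. Both genes overlap a gene on the opposite strand, Spidr with 623 counts in all libraries for Cebpd and Tmem189 with 5324 for Cebpb, and the use of strand in counting is not given in the sources used here.

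Other inducible genes were high in the same 2 libraries. Tsc22d3, a leucine zipper gene that glucocorticoids induce, had 151, 299, 147 and 171 CPM in db/db replicates 1 to 4, against 207, 103, 89.0 and 100 CPM in db/m replicates 1 to 4, and was singled out after its values were seen. Like Cebpb and Cebpd, it was highest in db/db replicate 2 and in db/m replicate 1, and so was Nfkbia, at 101 and 99.8 CPM. Fkbp5, a glucocorticoid receptor co-chaperone induced by the hormone, had 44.6, 93.8, 57.9 and 58.5 CPM in db/db, against 34.0, 33.9, 28.3 and 20.2 CPM in db/m. It too peaked in db/db replicate 2, but its groups did not overlap.

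Fkbp5 differed by 1.13 on the log2 scale (SE 0.24; edgeR BH-adjusted p = 0.149), and DESeq2 called it higher (DESeq2 adjusted p = 0.00255). Zbtb16, another glucocorticoid-induced gene, had 84.9 ± 20.2 CPM in db/db and 42.4 ± 6.28 CPM in db/m (log2 fold change 1.0, SE 0.19; edgeR BH-adjusted p = 0.136), and was called higher by DESeq2 and limma-voom. Of the 15 listed genes 14 passed the filter, 12 with a positive and 2 with a negative log2 fold change, and the median was 0.53, or 0.91 without db/m replicates 1 and 3, against a median of -0.02 for all 17411 genes. By edgeR 0 of the 14 were called. By unadjusted p under 0.05, 3 were higher and 1 was lower, where 5.12% and 7.84% of all genes were. DESeq2 called Fkbp5 and Zbtb16, and limma-voom called Zbtb16 and Hif3a but not Fkbp5 (limma-voom adjusted p = 0.0717). Of all genes, DESeq2 called 0.789% higher and limma-voom 0.414%. Hif3a, a hypoxia-inducible factor subunit, had 3.04 to 5.07 CPM in db/db, against 1.23, 1.13, 4.18 and 0.237 CPM in db/m replicates 1 to 4, so its groups overlapped through db/m replicate 3 (limma-voom adjusted p = 0.0413). The receptor gene itself, Nr3c1, was 1 of the 2 with a negative value, at -0.48 (SE 0.20; adjusted p = 0.366 by the same edgeR test). The part of glucocorticoid signalling in the Cebpb and Cebpd values was not tested.

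Of the other C/EBP genes, Cebpa, Cebpg and Ddit3, a stress-induced member, were also highest among db/db hearts in replicate 2, at 27.0, 82.6 and 19.1 CPM. Among db/m hearts none of the 3 was highest in replicate 1. Cebpa, a factor of adipocytes and hepatocytes, had 17.7 ± 6.52 CPM in db/db and 77.5 ± 84.6 CPM in db/m (log2 fold change -2.13, SE 0.66; edgeR BH-adjusted p = 0.296), with 63.8 and 201 CPM in db/m replicates 1 and 3. Without those libraries its log2 fold change was -0.36. Cebpg, a widely expressed dimer partner, had 59.3 ± 16.1 CPM in db/db and 56.9 ± 1.43 CPM in db/m (log2 fold change 0.06, SE 0.17). Of 5 listed C/EBP genes 4 passed the filter, and edgeR, DESeq2 and limma-voom called 0 of them.

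Of the secreted products, Lcn2 (ENSMUSG00000026822, chromosome 2, 32384633 to 32388252) encodes lipocalin-2, which binds bacterial siderophores and is made by neutrophils and by epithelial, fat and heart muscle cells under inflammatory signals. It had 7.43, 10.8, 8.11 and 7.31 CPM in db/db replicates 1 to 4, against 3.12, 3.88, 1.86 and 3.04 CPM in db/m replicates 1 to 4. Every db/db library lay above every db/m library, and the lowest was db/m replicate 3. Lcn2 averaged 8.42 ± 1.65 CPM in db/db and 2.98 ± 0.833 CPM in db/m, a log2 fold change of 1.5 (SE 0.26), or 2.83-fold. Leaving out each library in turn gave 1.34 to 1.66, and leaving out db/m replicates 1 and 3 gave 1.28.

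These levels rest on 137 to 231 counts per db/db library, against 45 to 79 counts per db/m library. In db/db replicate 3, which held 412 counts of the 4 granule genes, Lcn2 had 8.11 CPM, against 7.31 to 10.8 CPM in the other db/db libraries. Without db/db replicate 3 the Lcn2 log2 fold change was 1.52. After subtracting genotype means, the Pearson correlation of Lcn2 over 8 libraries was 0.58 with S100a8, 0.67 with S100a9 and 0.24 with Ngp. Without the 2 libraries where Lcn2 lay farthest from its median, these were 0.23, 0.26 and 0.38. The part of neutrophils in the Lcn2 values was not tested. Among receptors and partners of lipocalin-2, haptoglobin and the S100 proteins, 8 of 12 listed genes passed the filter. They had 3 positive and 5 negative log2 fold changes, a median of -0.13 and 0 calls by edgeR, DESeq2 or limma-voom. By edgeR 1 of them, Lrp1, had an unadjusted p under 0.05 and was lower, where 7.84% of all genes were. Slc22a17, a lipocalin-2 receptor named after its values were seen, had 2.02 to 4.85 CPM in db/db and 1.76 to 7.40 CPM in db/m, and Lrp1, a receptor of many ligands, had -0.90 on the log2 scale (SE 0.39), or 0.01 without db/m replicates 1 and 3.

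**Figure D3:**
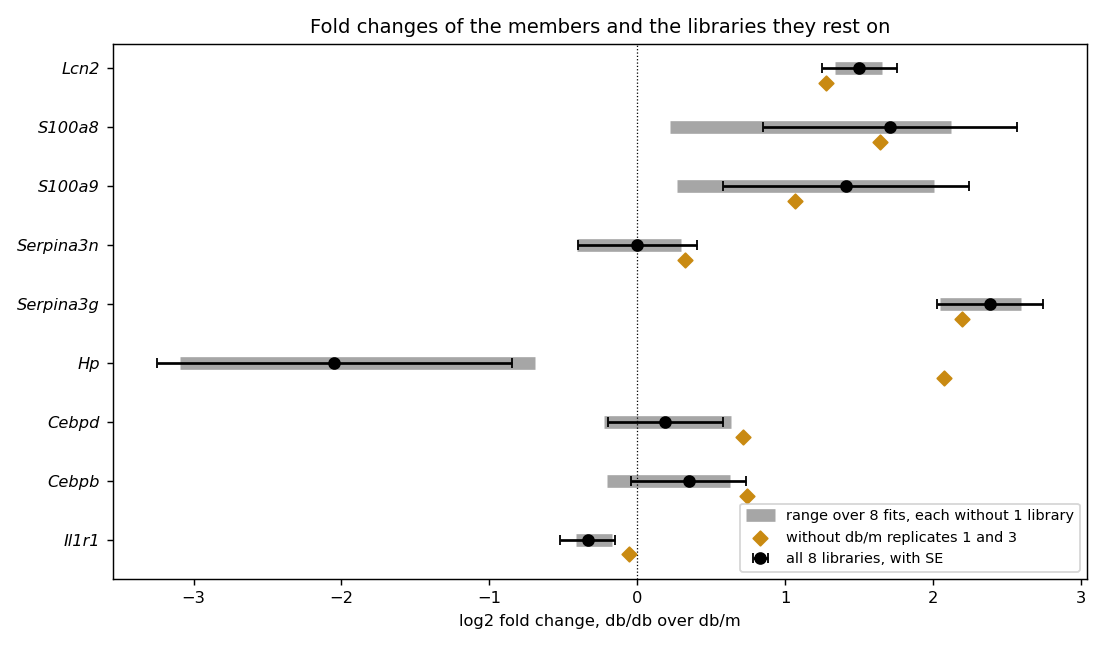
Log2 fold change, db/db over db/m, of the 9 genes that passed the filter. Black points are all 8 libraries with their SE, grey bars are the range over 8 fits that each leave out 1 library, and orange diamonds leave out db/m replicates 1 and 3. Lcn2 (1.34 to 1.66) and Serpina3g (2.05 to 2.59) have narrow ranges, S100a8 and S100a9 reach down to 0.22 and 0.27, and Hp changes side.

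The serpins form a cluster on chromosome 12. Serpina3n, the mouse gene most often set beside human alpha-1-antichymotrypsin, encodes a secreted inhibitor of serine proteases and rises in inflamed tissue, while Serpina3g encodes an inhibitor that in mouse stays inside cells and blocks lysosomal cathepsins. Serpina3g (ENSMUSG00000041481, 104236245 to 104241939) had 7.11, 12.5, 7.001 and 4.16 CPM in db/db replicates 1 to 4, against 1.10, 2.06, 1.45 and 1.28 CPM in db/m replicates 1 to 4. The groups did not overlap, and the lowest db/db library was at 4.16 CPM, above the highest db/m library at 2.06 CPM. Serpina3g averaged 7.70 ± 3.5 CPM in db/db and 1.47 ± 0.418 CPM in db/m, a log2 fold change of 2.39 (SE 0.36), or 5.23-fold, and 2.20 without db/m replicates 1 and 3.

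Serpina3n (ENSMUSG00000021091, 104406729 to 104414329) lay 164789 bases from Serpina3g and did not share its difference. It had 20.6, 110, 65.1 and 57.0 CPM in db/db replicates 1 to 4, against 79.8, 56.0, 72.3 and 44.9 CPM in db/m replicates 1 to 4. The lowest and the highest library were both db/db, replicates 1 and 2, and the db/m libraries lay between them. Serpina3n averaged 63.3 ± 36.9 CPM in db/db and 63.3 ± 15.8 CPM in db/m, a log2 fold change of 0.00 (SE 0.40), with a range of -0.41 to 0.29 over the fits that each left out 1 library and 0.32 without db/m replicates 1 and 3. As a ratio of counts, Serpina3n was 2.90 to 13.7 times Serpina3g in db/db libraries, against 27.2 to 72.6 times in db/m libraries.

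Serpina3f, the neighbour 15115 bases from Serpina3g, had a like difference. It had 82, 126, 74 and 20 counts in db/db replicates 1 to 4, against 9, 17, 14 and 7 counts in db/m replicates 1 to 4, with no overlap. Its log2 fold change was 2.78 (SE 0.53; edgeR BH-adjusted p = 0.136), and DESeq2 called it higher. Serpina3c, another gene of the cluster, had 0.485 to 1.06 CPM in db/db, below the 1.42 to 4.18 CPM of db/m (log2 fold change -1.74, SE 0.42; edgeR BH-adjusted p = 0.206), and DESeq2 called it lower. Serpina3c was highest in db/m replicates 1 and 3, and without them its log2 fold change was -1.04. Of 9 listed genes of the cluster 3 passed the filter. edgeR and limma-voom called 0 of them, while DESeq2 called 2, where it called 1.77% of all genes in either direction. By unadjusted p under 0.05 in edgeR, 1 was higher and 1 lower, where 5.12% and 7.84% of all genes were.

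The transcripts of Serpina3f and Serpina3g are 88.5% identical over 1751 aligned bases, and Serpina3g and the pseudogene Serpina3h 92.0%, so reads may have been split or shared between these genes and the value of each is uncertain. Serpina3g and Serpina3n are 78.5% identical. The ratio of Serpina3g to Serpina3f counts lay between 1.61 and 3.90 in db/db libraries and between 2.47 and 3.86 in db/m libraries.

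Saa3 (ENSMUSG00000040026, chromosome 7, 46711998 to 46715700) is the serum amyloid A gene that mouse macrophages and fat cells express outside the liver. It had 0, 3, 36 and 3 counts in db/db replicates 1 to 4, against 0, 1, 0 and 2 counts in db/m replicates 1 to 4. Only db/db replicate 3, at 1.66 CPM, stood above the others, the library that was also highest for S100a8, S100a9 and Ngp. Saa3 failed the filter on low counts, and no fold change is given. The liver genes Saa1 and Saa2 had 0 counts in all 8 libraries.

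Hp (ENSMUSG00000031722, chromosome 8, 109575128 to 109579172) encodes haptoglobin, which binds free haemoglobin and is made by liver and by fat. It had 1.94, 11.3, 37.6 and 8.11 CPM in db/db replicates 1 to 4, against 65.5, 4.66, 172 and 2.33 CPM in db/m replicates 1 to 4. The db/m libraries split into replicates 1 and 3, above every db/db library, and replicates 2 and 4, below all db/db libraries but replicate 1. Hp averaged 14.7 ± 15.7 CPM in db/db and 61.0 ± 79.4 CPM in db/m, a log2 fold change of -2.05 (SE 1.20). Without db/m replicates 1 and 3 the direction turned, to 2.07, and limma-voom, which gave db/m replicate 3 little weight, had 0.36.

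Some genes of fat cells had the same division. Adipoq, the adiponectin of fat cells, had 2, 1, 0 and 0 counts in db/db, against 1082, 4, 2243 and 10 in db/m. Adipoq and Ucp1, like Alb and Cyp2e1, were named after their values were seen. Pnpla2 and Fabp4, the adipocyte markers of highest mean CPM, did not share this division. In db/m replicates 1 to 4 Pnpla2 had 381, 415, 448 and 408 CPM, and Fabp4 had 327, 318, 186 and 309 CPM. The 14 adipocyte markers summed to 904 to 1485 CPM in db/db, against 828 to 3050 CPM in db/m. Hepatocyte markers summed to 3.68 to 7.79 CPM in db/db and 5.15 to 96.3 CPM in db/m, where Cyp2e1, also expressed in fat, held most of the sum in replicates 1 and 3, and Alb had at most 4 counts in any library. The part of fat tissue in the Hp value was not tested. Within db/db libraries Hp was highest in replicate 3, like S100a8.

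Other acute-phase genes showed no common direction. Of 33 listed, 13 passed the filter, with 5 positive and 8 negative log2 fold changes and a median of -0.23, or 0.32 without db/m replicates 1 and 3, and 6 had 0 counts in every library, among them the serum amyloids Saa1 and Saa2 and the fibrinogen chain Fga. edgeR called 0 of the 13. By unadjusted p under 0.05, 3 were higher and 2 were lower, where 5.12% and 7.84% of all genes were. Lrg1, a leucine-rich secreted glycoprotein, had 101 ± 11.3 CPM in db/db and 61.7 ± 20.98 CPM in db/m, with no overlap (log2 fold change 0.71, SE 0.24; edgeR BH-adjusted p = 0.302). Complement C3 had 261 ± 147 CPM in db/db and 307 ± 200 CPM in db/m, and its log2 fold change of -0.23 (SE 0.48) was 0.26 without db/m replicate 3. Serping1, the C1 inhibitor, had 0.14 (SE 0.17).

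**Figure D4:**
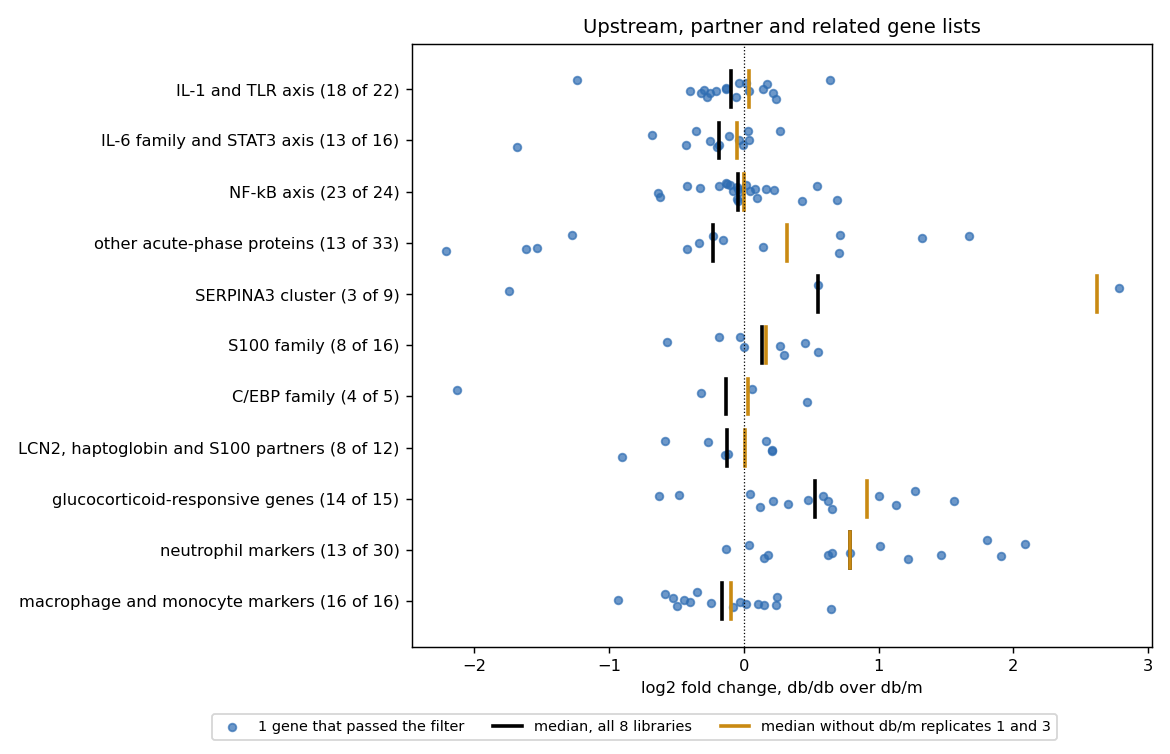
Log2 fold change, db/db over db/m, of the genes that passed the filter in each list, with the number that passed of those listed in brackets. Black bars are the list medians with all 8 libraries and orange bars the medians without db/m replicates 1 and 3. The black medians lie between -0.23 and 0.14 for 8 of the 11 lists shown. They lie at 0.53 for glucocorticoid-responsive genes, 0.55 for the SERPINA3 cluster and 0.79 for neutrophil markers. Most neutrophil markers were highest in db/db replicate 3, a library that both medians include.

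Per kilobase of deposited gene length, a scale on which genes can be set side by side, mean levels in db/db were 42.0 CPM per kb for Cebpb, 30.7 for Serpina3n, 28.0 for S100a9, 17.3 for Cebpd, 13.4 for S100a8, 9.17 for Hp, 6.22 for Il1r1, 3.66 for Serpina3g, 3.21 for Lcn2 and 0.188 for Saa3. In db/m Hp came at the top with 38.0 CPM per kb, ahead of Cebpb at 33.1 and Serpina3n at 30.7, a place that rests on 65.5 and 172 CPM in replicates 1 and 3, since replicates 2 and 4 had 4.66 and 2.33 CPM. Neighbours in either order overlapped between libraries, except that Saa3 lay below the gene ranked above it, Lcn2 in db/db and Serpina3g in db/m. Thus Lcn2 and Serpina3g, with the clearest separation, were among the 3 lowest genes of the set per kilobase in both genotypes.

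Among db/db hearts, replicate 2 held the highest level of Lcn2, Serpina3n, Serpina3g, Cebpd and Cebpb, and replicate 3 that of S100a8, S100a9, Saa3, Hp and Il1r1, while replicates 1 and 4 held none. Among db/m hearts, replicate 1 held the highest level of S100a8, Serpina3n, Cebpd and Cebpb, replicate 2 that of Lcn2, S100a9 and Serpina3g, replicate 3 that of Hp and Il1r1, and replicate 4 that of Saa3. The division of db/db hearts was thus not that of db/m hearts, where S100a8 and S100a9 parted.

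Genes most like Lcn2, S100a8 and Serpina3n were sought among 14478 genes of at least 2 CPM, by Pearson correlation of log2 CPM after subtracting the genotype mean, over 8 libraries. All points share the same libraries and their depth. The highest of 14478 correlations over 8 libraries are also large by chance alone, so the values are descriptions. For Lcn2 the most alike were the pseudogene Rps6-ps3 (r = 0.99), Ctsl, a lysosomal cathepsin (0.98), and the pseudogenes Gm11263, Gm8971 and Gm16199 (0.98 each). For S100a8 they were BC002059 (0.99), Rbmx (0.98), Gatc (0.97), Gm46610 (0.97) and Gm14269 (0.96). For Serpina3n they were Gm8775 (0.97), Pth1r (0.97), Scn3b (0.97), Atl2 (0.96) and Capg (0.96).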

How the data were processed

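RNA-seq of total heart RNA was deposited by the authors as whole-number gene counts, and the count table also gives gene length in bases, a deposited value of another unit used for levels per kilobase. Per the labels' protocols, libraries were made from 3 µg of total RNA with the NEBNext Ultra kit. Per the submitters' processing notes the genome build was mm10. No source used here names the aligner, the counter, the annotation release or the use of strand. The 8 single-sample tables hold the same counts as the series table, which has 55573 genes and 0 rows without one, and GENCODE M21 held 55480 of the identifiers, 55304 at identical coordinates.

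The 4 db/db and 4 db/m libraries were compared with edgeR 4.0.16 in R 4.3.3 (TMM scaling, filterByExpr with a minimum count of 10 and a total of 15, robust quasi-likelihood F test, Benjamini-Hochberg adjustment over 17411 genes, two-sided, threshold 0.05). DESeq2 1.42.0 and limma-voom with sample quality weights (limma 3.58.1) were alternatives, as were 3 other scalings, no filter, a filter of 1 CPM in 4 libraries, a replicate block, and leaving out libraries. The scripts were tested on simulated data. No 2 libraries of a genotype agreed within sampling noise (chi-square per degree of freedom 13.98 to 221.1). Replicate numbers were not taken as pairs.

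The 10 genes and the gene lists were chosen with earlier results of these data known. From each list the text could name every called gene, the 3 of highest mean CPM and the 3 of smallest unadjusted p; genes outside this rule are said to be. Saa3 failed the filter. Some listed genes are not reported here. Upstream sequences came from RefSeq on GRCm38.p6, and the motif forms were chosen after several were tried. Transcripts were aligned with BLAST 2.17.0.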

Additional observations from a re-analysis of the deposited data

Results flagged for a closer look

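In 22 of the 121 groups of 4 libraries examined, 1 library stood apart from the other 3, with a gap to its nearest neighbour above Dixon's critical share of the group's range. Chance alone flags about 1 in 20 groups, and the genes examined are not independent.

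Of the 10 genes, S100a8 stood apart in db/db replicate 3 (27.3 CPM, gap 0.891 of the range), and so did Saa3 (1.66 CPM, 0.903). Cebpb stood apart in db/db replicate 2 (124 CPM, 0.884), and so did Cebpd (114 CPM, 0.867). Neutrophil genes stood apart in db/db replicate 3, with gaps of 0.878 for Camp, 0.979 for Ltf, 1.0 for Ly6g and 0.915 for Ngp.

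Tsc22d3 stood apart in db/db replicate 2 (0.838) and in db/m replicate 1 (0.885), and Nfkbia in db/m replicate 1 (0.855). Il6 did so in db/db replicate 1 (1.0) and db/m replicate 1 (0.888). Traf6 was low in db/db replicate 2 (0.881) and high in db/m replicate 3 (0.878), where Tlr4 was high too (0.891). S100a1 was low in db/db replicate 4 (0.835).

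In db/m, Camp stood apart in replicate 4 (1.0), Ly6g in replicate 2 (1.0) and Csf3r in replicate 2 (0.950), the values of Camp and Ly6g resting on 1 and 2 counts. The summed mesothelial markers were high in db/db replicate 1 (0.900), and the summed erythroid markers in db/m replicate 2 (0.946).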

How the results depend on the processing

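Across all genes edgeR called 1 gene between db/db and db/m, DESeq2 called 354, limma-voom 130 and edgeR without a filter 27. Leaving out 1 library at a time gave 0 to 106 calls, the highest without db/m replicate 3, and leaving out db/m replicates 1 and 3 gave 46. How many genes are called therefore depends on the tool and on these libraries; the cause was not tested.

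With the replicate number as a block edgeR called 5 genes. Same-numbered libraries did not deviate together (correlations -0.088, 0.056, 0.027 and 0.016). These values cannot settle whether the design held pairs, and the labels state none.

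Of 153 log2 fold changes of the 9 genes under alternatives, 152 moved by less than the spread between libraries. The exception was Hp, 2.07 without db/m replicates 1 and 3. Leaving out 1 library rarely moves a mean by that spread, so this count does not show that the values are stable. S100a8 fell from 1.71 to 0.22 without db/db replicate 3, which is within the spread. Cebpb and Cebpd changed sign without db/db replicate 2, also within it. Among genes named beside them, Serpina3f, Serpina3c, Zbtb16, Fkbp5 and Hif3a passed the threshold under at least 1 alternative, and no called value turned. At 0 to 36 counts a library, Saa3 allows no comparison.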
